A study of Mus musculus with 2 samples.

Results

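The cadherin genes of mouse spiral ganglion neurons, the primary auditory neurons of the cochlea, were described in 2 libraries of single cells. They were all genes of the deposited expression table whose symbol starts with Pcdh, or with Cdh followed by a digit. The rule found 81 of 14425 genes: 4 type I classical cadherins, 11 type II classical cadherins, *Cdh23*, 4 delta-1 and 4 delta-2 protocadherins, *Pcdh15* and *Pcdh20*, and 13 alpha, 21 beta and 21 gamma clustered protocadherins. The control library, labelled iCON, came from mice of genotype Runx1-CreER/+; Ai14/+, and the library labelled iCKO from Runx1-CreER/Runx1F; Ai14/+ mice, which also carry a floxed *Runx1* allele. Both genotypes carry the tamoxifen-inducible Cre at *Runx1* and the Ai14 tdTomato reporter, and both received tamoxifen on postnatal day 1. Cochleae of both sexes were taken on postnatal days 27 to 29, dissociated and sorted for tdTomato. The Cre is driven from *Runx1*, a transcription factor gene, so neurons without *Runx1* activity when tamoxifen was given need not be labelled. There was 1 library per genotype and the number of animals in each is not given, so every difference below is between 2 libraries, without a replicate check.

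Cadherins are calcium-dependent adhesion proteins of the cell surface. Classical cadherins bind the same or a related cadherin on the neighbouring cell and are tied to actin through catenins. Type II cadherins are known for differing between classes of neurons that lie side by side. Delta protocadherins are non-clustered relatives with roles in axon growth and sorting, and delta-2 members recruit the WAVE actin-regulating complex. The clustered protocadherins lie in tandem arrays, and each neuron is thought to use its own small set of them, which gives cell surfaces an identity used in self-avoidance. *Pcdh20* is known as a marker of type Ia spiral ganglion neurons, which also express *Calb2* (calretinin), and *Lypd1* marks type Ic neurons.

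Cells were grouped by the level of these marker genes in CPM, the unique molecular identifiers (UMIs) of a gene per 1000000 UMIs of the cell. Lypd1-high cells had at least 1000 CPM of *Lypd1* and Lypd1-low cells under 100. Calb2-high cells had at least 10000 CPM of *Calb2* and Calb2-intermediate cells 1000 to under 10000. These are ranges of 1 gene and not cell types, and a cell can be in a *Lypd1* and a *Calb2* class at once. The iCON library held 180 Lypd1-high, 256 Lypd1-low, 86 Calb2-high and 204 Calb2-intermediate cells. The iCKO library held 126, 261, 227 and 142. The mix within a class also differed: 39 of the 180 Lypd1-high cells of iCON were Calb2-intermediate, against 82 of 126 in iCKO. Within 1.25-fold of the *Calb2* limit of 10000 CPM lay 25 iCON cells (18 below, 7 above) and 48 iCKO cells (23 below, 25 above), and no other limit had more than 9 cells as near to it.

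Of 462 iCON cells the median depth was 49725.5 UMIs, and of 407 iCKO cells 33602. The members together made up 6.53 of 10000 UMIs in iCON and 6.12 in iCKO, and a cell held UMIs of a median of 12 and 10 members. The 6 neuronal markers (*Snap25*, *Tubb3*, *Nefl*, *Nefm*, *Rbfox3* and *Syt1*) summed to a median of 13125 CPM in iCON and 14357 in iCKO, and none of them was at 0 in either. Other differences between the libraries are given here because they touch single results below. Type II-like cells, in which at least 3 of 6 type II neuron markers had 2 or more UMIs, numbered 27 in iCON and 4 in iCKO. All 27 held *Xist* RNA and no Y-linked RNA, whereas all 4 held Y-linked RNA only. In each library 2 of the 6 type II markers had 0 UMIs in these cells, so the name rests on the others. The neuronal markers summed there to a median of only 5260 CPM in iCON and 4891 in iCKO. A list of 8 Schwann or satellite glia markers had medians of 309 and 72.0 CPM, with 95th percentiles of 7303 and 1149. The name type II-like is therefore a label of this rule and was not tested further. Cells with *Xist* and no Y-linked RNA were 54.5% of iCON and 78.4% of iCKO. Cells with under 500 CPM of myelin genes were 23.6% of iCON and 38.6% of iCKO. *Runx1* RNA had a mean of 86.7 CPM in iCON and 112 CPM in iCKO, so the level was higher, not lower, under the iCKO label. The labels do not say which part of *Runx1* is deleted and the assay reads the 3′ end, so this level checks neither label.

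Promoter sequence is shown for the 4 members that differed most between classes or libraries, since they differ in the density of CG dinucleotides. The bases lie upstream of both the RefSeq start and the GENCODE M21 gene, are written 5′ to 3′ on the gene's strand in build GRCm38.p6, and have CG in capitals.

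Pcdh20, chr14:88471397-88471646, minus strand: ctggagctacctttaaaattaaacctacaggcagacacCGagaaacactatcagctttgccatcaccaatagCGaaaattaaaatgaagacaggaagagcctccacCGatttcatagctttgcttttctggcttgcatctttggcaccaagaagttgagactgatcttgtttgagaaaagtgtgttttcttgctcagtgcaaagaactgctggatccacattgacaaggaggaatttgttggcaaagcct
Cdh22, chr2:165234854-165234987, minus strand: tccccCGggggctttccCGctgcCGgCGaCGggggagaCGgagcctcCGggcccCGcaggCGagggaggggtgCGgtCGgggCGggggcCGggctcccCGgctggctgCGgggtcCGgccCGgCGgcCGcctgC
Cdh9, chr15:16728665-16728755, plus strand: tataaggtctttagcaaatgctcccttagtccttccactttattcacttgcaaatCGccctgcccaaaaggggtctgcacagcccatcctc
Pcdh9, chr14:93890680-93890929, minus strand: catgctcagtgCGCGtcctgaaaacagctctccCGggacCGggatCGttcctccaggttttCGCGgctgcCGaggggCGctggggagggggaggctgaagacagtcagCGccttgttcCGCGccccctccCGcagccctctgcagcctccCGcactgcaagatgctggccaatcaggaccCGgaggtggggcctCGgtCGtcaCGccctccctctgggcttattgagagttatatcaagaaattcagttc

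The first 3, *Pcdh20*, *Cdh22* and *Cdh9*, had the lowest Lypd1-high over Lypd1-low ratios of the members past the minimum level, and *Pcdh9* the highest. In the full RefSeq windows of 250 bases before the start, *Cdh22* had 30 CG, and 5.94% of all 32851 windows had as many or more. *Pcdh9* had 18, *Cdh9* had 6, *Pcdh20* had 3, and the median of all windows was 6. The letters TGTGGT, the core bound by RUNX proteins, were searched on both strands. They stood in the windows of 4 of the 19 members with a window (22 windows), against 14.0% of all windows, and in none of the windows of *Pcdh20*, *Cdh22*, *Cdh9* or *Pcdh9*.

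Levels of the members spanned from *Pcdh7* and *Cdh2* down to genes with a handful of UMIs. *Pcdh7*, a delta-1 protocadherin, had a mean of 157 CPM in iCON (3387 UMIs) and 149.8 in iCKO (2044 UMIs). *Cdh2* (N-cadherin), the main classical cadherin of neurons, had 142 CPM (3083 UMIs) and 117 CPM (1608 UMIs). The next in order, as the mean of the libraries, were *Cdh4*, *Pcdh20*, *Cdh22*, *Cdh9*, *Pcdh9* and *Cdh1*, between 31.2 and 16.9 CPM, followed by *Pcdhb16*, *Pcdhb20*, *Pcdhb21* and *Pcdhb14* between 12.9 and 10.5 CPM. The order is not the same in both libraries: *Cdh22* had 13.6 CPM in iCON, below *Cdh9* and *Pcdh9*, and 30.4 CPM in iCKO, above both. UMIs are counted at the 3′ end and are not per length, so levels of different genes are set in order only roughly. The lowest were *Pcdha7* (5 UMIs in iCON and 0 of 13743824 in iCKO, which allows up to 0.218 CPM) and *Pcdha4* (5 and 1 UMIs). *Pcdh15*, which forms the hair cell tip link with *Cdh23*, had 4 and 5 UMIs. Of the 81 members, 20 to 26 had a mean of at least 5 CPM over the 2 groups of a comparison. Ratios were called only for those, as log2 of the means with 5 CPM added, which understates the change of low genes. Called at least 2-fold means a log2 ratio of 1 or more, or of -1 or less.

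Among the non-clustered protocadherins past the minimum level, *Pcdh20* had the largest log2 ratio between classes of iCON. In iCON its mean was 1.49 CPM in Lypd1-high cells, 46.5 in Lypd1-low, 36.9 in Calb2-high and 1.73 in Calb2-intermediate cells. In iCKO the same classes had 11.5, 36.2, 30.6 and 13.1 CPM. Without the type II-like cells described next, Lypd1-low cells had 19.1 CPM in iCON and 33.5 in iCKO. *Pcdh20* was near the floor in 2 classes of the control library and above 10 CPM in all 4 classes of the other. The Lypd1-high class had 15 *Pcdh20* UMIs in the control library against 51 in the other. Its log2 ratio was 1.35, and the counting interval of the ratio of summed UMIs, without the added 5 CPM, was 1.98 to 3.77. Calb2-intermediate cells held 12 and 63 UMIs, a log2 ratio of 1.42 with an interval of 2.55 to 4.48. Calb2-high cells held 165 and 252 UMIs, a log2 ratio of -0.24 with an interval of -0.48 to 0.10. After thinning each cell to 20000 UMIs, a *Pcdh20* UMI was present in 2.25% of Lypd1-high cells of iCON (95% Clopper-Pearson interval 0.616 to 5.65) and in 19.2% of those of iCKO (12.7 to 27.2). Unthinned, the shares were 6.67% and 23.8%, at median depths of 50681 and 33944.5 UMIs. The same class was read by sex-linked RNA, since cells with *Xist* RNA were more frequent in iCKO. Among Lypd1-high cells with *Xist* and no Y-linked RNA, *Pcdh20* had 2.13 CPM in iCON (12 UMIs, 97 cells) and 13.1 in iCKO (47 UMIs, 103 cells), a log2 ratio of 1.35. Among those with Y-linked RNA only it had 0.775 CPM (3 UMIs, 79 cells) and 3.35 CPM (2 UMIs, 20 cells), a log2 ratio of 0.53. In Calb2-intermediate cells the log2 ratio was 1.53 with *Xist* and 0.19 with Y-linked RNA, on 6 and 2 UMIs in the latter. The means were higher in iCKO in both kinds of cell, the added 5 CPM lowers the ratio of levels this low, and the difference between the sexes was not tested. No sorted cell type that should lack *Pcdh20* was available as a background. The lowest class share at 20000 UMIs was 1.52%, in Calb2-intermediate iCON cells, against 50% in Calb2-high iCON cells. Unthinned, those shares were 3.43% and 73.3%, at median depths of 48742.5 and 55570 UMIs. RNA free in the droplets would give a gene's UMIs to all classes of a library, and its part was not tested.

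The *Pcdh20* level over all cells hides type II-like cells, where it was the member with the highest mean. In those cells the mean was 279 CPM in iCON (231 UMIs in 27 cells) and 210 CPM in iCKO (18 UMIs in 4 cells). In the other cells it was 10.7 CPM in iCON and 25.2 CPM in iCKO. The log2 ratio of iCKO over iCON was therefore 0.03 over all cells and 0.94 without type II-like cells, where the counting interval was 1.02 to 1.51. In Lypd1-low cells it moved from -0.32 to 0.67. *Cdh4* was also high in type II-like cells, with 85.3 CPM in iCON and 137 in iCKO, against 27.8 and 30.2 in the others. *Pcdh17*, a delta-2 protocadherin, had 24.8 and 36.6 CPM there against 1.28 and 1.74. In iCON, where the 27 cells allow a comparison, 4 of 26 members past the minimum were at least 2-fold higher in type II-like cells (10.1% of all genes) and 4 at least 2-fold lower (12% of all genes). The members higher by this rule were *Pcdh20* (log2 ratio 4.18), *Pcdh17* (2.25), *Cdh4* (1.46) and *Pcdhga10* (1.0). Those lower were *Cdh9* (-1.72), *Pcdh7* (-1.59), *Cdh22* (-1.25) and *Pcdhac2* (-1.12). Type II-like cells were few and shallow, with a median of 29831 UMIs in iCON, and whether their number differs between the genotypes or between dissections cannot be told apart with 1 library each.

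**Figure D1:**
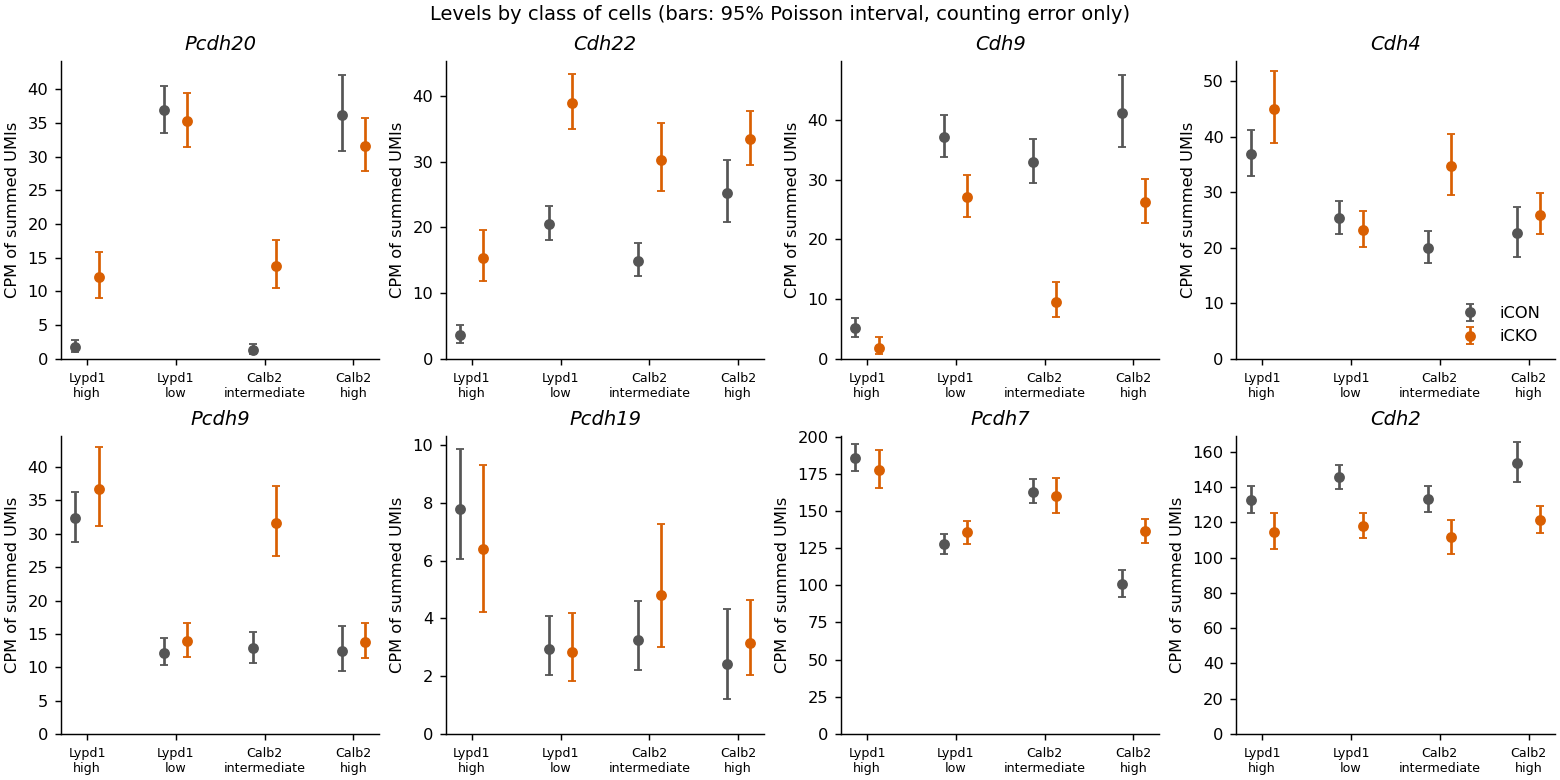
Levels of 8 members in each class of cells, as CPM of summed UMIs (vertical axis, linear, from 0), with 95% Poisson intervals for counting error only. Grey is iCON and orange is iCKO. *Pcdh20* is close to 0 in Lypd1-high and Calb2-intermediate cells of iCON and above 10 CPM in those of iCKO, and *Cdh9* is low in Lypd1-high cells of both libraries.

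Of the type II classical cadherins, *Cdh22* and *Cdh9* were the most abundant and differed between the libraries in opposite directions. *Cdh22* had means of 3.45, 20.8, 27.2 and 16.3 CPM in Lypd1-high, Lypd1-low, Calb2-high and Calb2-intermediate cells of iCON. In iCKO it had 15.1, 38.9, 33.5 and 30.4 CPM, higher in each class. Lypd1-high cells held 32 and 65 UMIs, a log2 ratio of 1.25 with an interval of 1.46 to 2.75 for summed UMIs. The log2 ratio was 0.76 in Lypd1-low cells (245 and 344 UMIs; interval 0.68 to 1.17), 0.73 in Calb2-intermediate cells (143 and 139 UMIs; 0.67 to 1.37) and 0.26 in Calb2-high cells (115 and 266 UMIs; 0.09 to 0.73). Over all cells it was 0.93, the highest of the members, with an interval of 1.0 to 1.44. After thinning, the share with a *Cdh22* UMI was 17.6% in the control library (interval 14.2 to 21.4) and 42.7% in iCKO (interval 37.8 to 47.7).

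*Cdh9* was low in Lypd1-high cells of both libraries. Its means were 5.70, 35.9, 42.9 and 32.9 CPM in the 4 classes of iCON, in the same order, and 1.96, 27.3, 26.8 and 10.1 CPM in iCKO. The level was lower in every class of iCKO. The log2 ratio was -1.33 in Calb2-intermediate cells (316 and 44 UMIs; interval -2.27 to -1.32), -0.59 in Calb2-high cells (188 and 209 UMIs; -0.94 to -0.36) and -0.34 in Lypd1-low cells (445 and 240 UMIs; -0.69 to -0.23). In Lypd1-high cells *Cdh9* was below the minimum, with 45 and 8 UMIs. Calb2-intermediate cells of iCKO included more Lypd1-high cells, 82 of 142 against 39 of 204 in iCON. Without those cells the log2 ratio of *Cdh9* was -0.78, while that of *Cdh22* was 1.14 and that of *Pcdh20* was 1.14.

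Within Lypd1-high cells the *Calb2* level also differed between the libraries, so the 3 genes were read in 2 ranges of *Calb2*. *Calb2* is not matched within them: its median was 59.3 CPM in iCON and 117 in iCKO in the lower range, and 1776 and 4739 CPM in the upper. With under 1000 CPM of *Calb2* (140 iCON and 30 iCKO cells), *Pcdh20* had 1.72 and 7.57 CPM, *Cdh22* 3.45 and 13.4 CPM, and *Cdh9* 3.45 and 0 CPM. With 1000 to under 10000 CPM (39 and 82 cells), *Pcdh20* had 0.433 and 14.9 CPM, *Cdh22* 3.51 and 17.1 CPM, and *Cdh9* 13.9 and 3.01 CPM. *Pcdh20* and *Cdh22* were higher in iCKO in both strata, on 1 to 49 UMIs per group, and the mean of *Cdh9* was lower. *Cdh9* in the 30 iCKO cells was 0 of 963408 UMIs, which allows up to 3.11 CPM, beside 24 UMIs in iCON, where the counting interval of the level from summed UMIs was 2.24 to 5.21 CPM.

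Other type II cadherins were lower. *Cdh18* had 8.20 and 10.2 CPM in iCON and iCKO, and its log2 ratio was 0.21 over all cells (interval -0.02 to 0.62). *Cdh11* had 7.06 and 4.82 CPM, a ratio of -0.30 (-0.87 to -0.01). Over 11 alternatives this ratio ranged from -0.75 to 0.07. *Cdh11* RNA lay mostly in high-myelin cells, as given below, which were 76.4% of iCON and 61.4% of iCKO. The part of this mix in the *Cdh11* difference was not tested. *Cdh7* and *Cdh8* were nearly confined to Lypd1-high cells, at low levels, and are named after their values were seen. In iCON, *Cdh7* had 17 UMIs in Lypd1-high and 0 in Lypd1-low cells, at least 7.67-fold higher if 3 UMIs are allowed over the whole Lypd1-low group. *Cdh8* had 22 and 0, at least 9.92-fold higher. In iCKO, *Cdh7* had 6 and 0 UMIs, at least 4.19-fold higher. The folds given as at least allow for counting error in the Lypd1-low cells only. *Cdh8* had 5 and 1 UMIs in iCKO, a log2 ratio of summed UMIs of 3.39 with an interval of 0.23 to 8.95. *Cdh10*, also named after its values were seen, had 48 UMIs in Lypd1-high cells of iCON and 5 in those of iCKO, a log2 ratio of summed UMIs of -2.20 (-3.88 to -0.88), below the minimum level. *Cdh10* was also read by myelin RNA. In iCON it had 94 UMIs in high-myelin and 7 in low-myelin cells, a log2 ratio of summed UMIs of 1.97 (0.87 to 3.33). In iCKO it had 28 and 8, a log2 ratio of 1.04 with an interval that includes 0 (-0.13 to 2.39). Low-myelin cells, under 500 CPM of myelin genes, were 17.2% of Lypd1-high cells in iCON and 33.3% in iCKO, and their part in the *Cdh10* difference was not tested. *Cdh23*, a long cadherin of the hair cell tip link, was also below the minimum level. It had 94 UMIs in iCON and 22 in iCKO, 4.28 and 1.64 CPM, with an interval of -2.16 to -0.73. Its level was lower in each of the 4 classes of iCKO. *Cdh5*, the endothelial cadherin, was not among the genes of the table and was not analysed here.

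Of the type I cadherins, *Cdh2* was lower in each class of iCKO by a small margin. Its means were 133, 149, 159 and 133 CPM in Lypd1-high, Lypd1-low, Calb2-high and Calb2-intermediate cells of iCON, and 113, 119, 122 and 111 CPM in iCKO. The log2 ratio over all cells was -0.26, with an interval of -0.35 to -0.17. Among the 4 classes, *Cdh4* (R-cadherin) was highest in Lypd1-high cells, at 37.6 CPM in iCON and 45.0 in iCKO. Lypd1-low cells had 27.9 and 24.2 CPM, Calb2-high cells 22.1 and 26.2, and Calb2-intermediate cells 20.7 and 34.2. Without type II-like cells, Lypd1-low cells had 21.2 CPM in iCON and 22.5 in iCKO, and the log2 ratio moved from -0.17 to 0.07. The log2 ratio of *Cdh4*, iCKO over iCON, was 0.61 in Calb2-intermediate cells (interval 0.48 to 1.11). Over 14 alternatives this ratio ranged from -0.01 to 0.85. That class of iCKO held more Lypd1-high cells. Leaving those cells out was 1 of the 14 alternatives, and its value for *Cdh4* is not given singly here. *Cdh15* was low in both libraries, at 4.23 and 3.19 CPM.

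Among the delta protocadherins, *Pcdh9* was the member that stood highest in Lypd1-high over Lypd1-low cells. In iCON it had 32.1 CPM in Lypd1-high, 11.9 in Lypd1-low, 12.6 in Calb2-high and 12.6 in Calb2-intermediate cells. In iCKO it had 32.4, 13.0, 13.7 and 27.5 CPM. The log2 ratio of Lypd1-high over Lypd1-low was 1.14 in iCON (286 and 146 UMIs; interval 1.11 to 1.70) and 1.06 in iCKO (155 and 123 UMIs; 1.05 to 1.75). Single cells held up to 41 of these UMIs in iCON and 40 in iCKO. Without the cell with most UMIs in each group the ratio was 1.03 in iCON and 0.86 in iCKO, so the iCKO value passes 2-fold through 1 cell. The value of 27.5 CPM in Calb2-intermediate iCKO cells is over the 12.6 of iCON by a log2 ratio of 0.89 (0.94 to 1.66), and of 0.37 without the Lypd1-high cells of that class. *Pcdh7* had 189 CPM in Lypd1-high, 129.6 in Lypd1-low, 107 in Calb2-high and 167 in Calb2-intermediate cells of iCON. In iCKO it had 178, 137, 139 and 161 CPM. It was the lowest in Calb2-high cells of iCON, and there the log2 ratio of iCKO over iCON was 0.36 (0.28 to 0.60), the highest of the members in that class. *Pcdh19*, a delta-2 member on the X chromosome, had 7.67 CPM in Lypd1-high and 2.76 in Lypd1-low cells of iCON, a log2 ratio of 0.71, and 6.18 and 2.87 CPM in iCKO, below the minimum. *Pcdh10* had 7.57 and 5.60 CPM over all cells of iCON and iCKO. Its level was higher in high-myelin cells, as given below, and their part in this difference was not tested.

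*Pcdh20*, *Cdh9* and *Cdh22* were lower in Lypd1-high than in Lypd1-low cells of both libraries, and *Pcdh9* was higher, by 2-fold in iCKO only under some settings. For Lypd1-high over Lypd1-low cells in iCON, 24 members were past the minimum. Of these, 1 was at least 2-fold higher (*Pcdh9*; 0.721% of all genes) and 3 at least 2-fold lower (*Pcdh20* at -2.99, *Cdh9* at -1.94 and *Cdh22* at -1.61; 1.34% of all genes). Without type II-like cells the *Pcdh20* ratio was -1.90 in iCON and -1.22 in iCKO. In iCKO, of 21 members, 1 was higher (*Pcdh9*; 0.674%), which ranged from 0.67 to 1.55 and was under 2-fold in 8 of 14 alternatives, and the same 3 were lower (*Cdh9* at -2.22, *Pcdh20* at -1.32 and *Cdh22* at -1.13; 0.601%). For Calb2-high over Calb2-intermediate cells in iCON, 1 of 22 members was higher (*Pcdh20* at 2.64; 0.454%) and 0 lower (0.876%). In iCKO, 1 of 20 was higher (*Cdh9* at 1.08; 0.23%) and 0 lower (0.49%), and *Pcdh20* was at 0.98. Without the Lypd1-high cells among the Calb2-intermediate ones, the iCKO ratio of *Cdh9* was 0.36 and that of *Pcdh20* was 1.20, so the member past 2-fold was then *Pcdh20*. Of the 20 members past the minimum in both libraries, 14 had the same sign in both for the *Lypd1* contrast and 13 for the *Calb2* contrast. The share of all genes with the same sign is not given here, so these counts are no result about the members. The medians of the members were -0.01 and 0.06 for the *Lypd1* contrast in iCON and iCKO, beside 0.01 over all genes in both, and 0.05 and -0.11 for the *Calb2* contrast, beside -0.03 and -0.04.

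**Figure D2:**
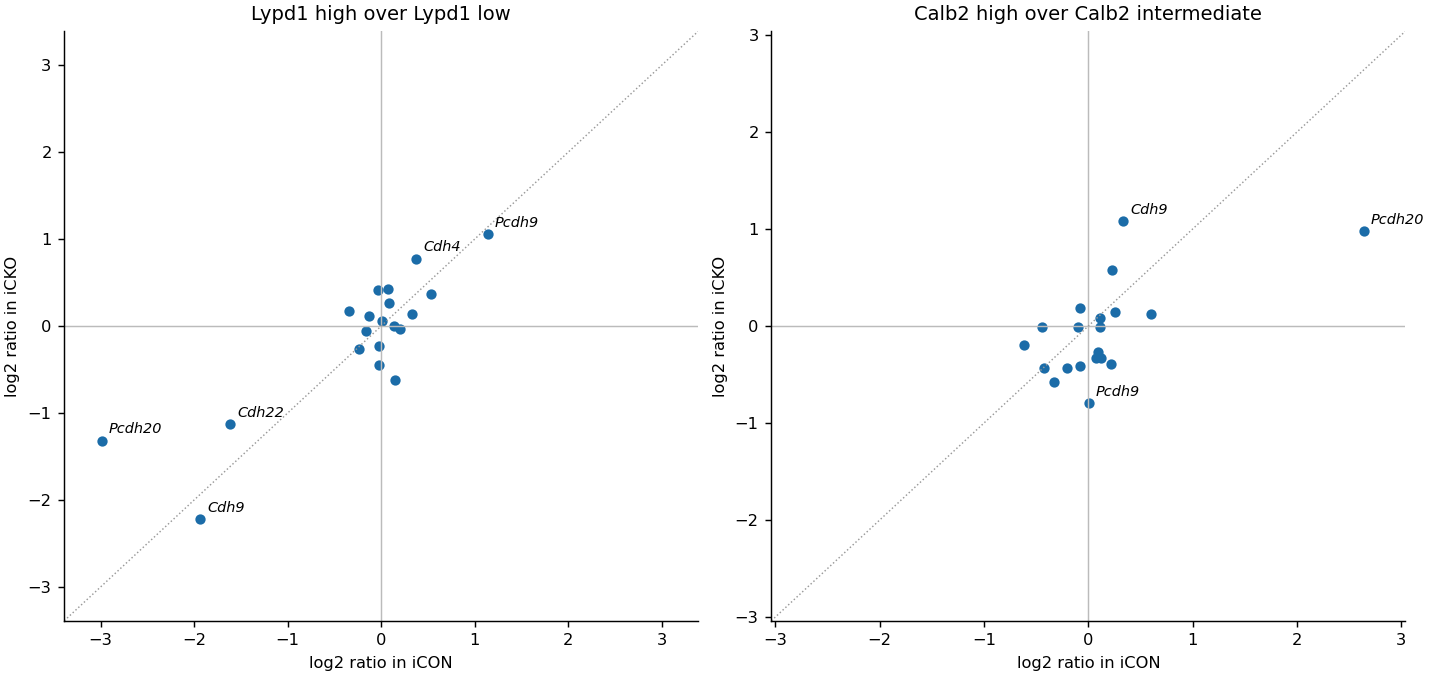
Log2 ratios between classes of cells in iCON (horizontal axis) and iCKO (vertical axis) for members past the minimum level in both libraries, 1 point per member; the dotted line marks equal ratios. *Pcdh20* lies at -2.99 and -1.32 for *Lypd1* and at 2.64 and 0.98 for *Calb2*, farther from 0 in iCON than in iCKO on both panels; without type II-like cells the *Lypd1* values are -1.90 and -1.22.

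For iCKO over iCON, 0 of 22 members past the minimum were at least 2-fold higher over all cells (0.123% of all genes) and 0 lower (0.297%). Of the 22, 6 had a ratio above 0 and 16 below, with a median of -0.14 beside -0.03 over all genes. The share of all genes below 0 is not given here, so these signs are no result about the members. In Lypd1-high cells 2 of 23 were higher (*Pcdh20* and *Cdh22*; 0.329% of all genes) and 0 lower (0.144%). In Lypd1-low cells 0 of 23 were higher (0.0821%) and 0 lower (0.595%). In Calb2-high cells 0 of 22 were higher (0.22%) and 0 lower (0.105%). In Calb2-intermediate cells 1 of 23 was higher (*Pcdh20*; 0.247%) and 1 lower (*Cdh9*; 0.124%). No test stands behind these counts, which describe 2 libraries.

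**Figure D3:**
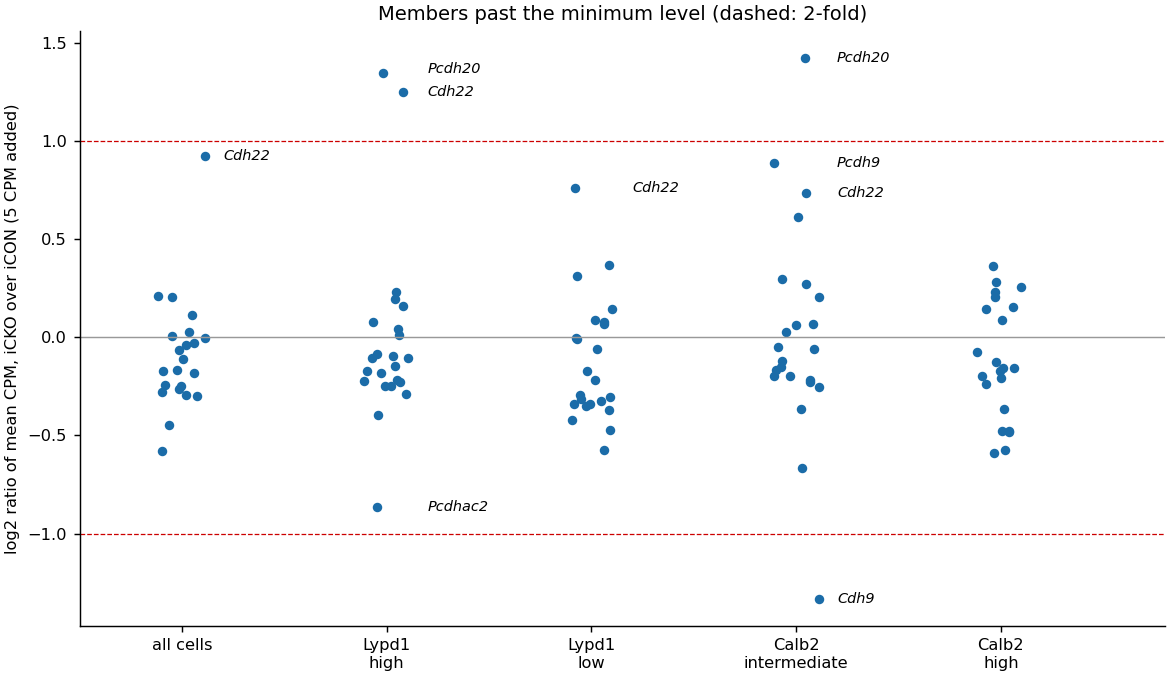
Log2 ratio of mean CPM, iCKO over iCON with 5 CPM added (vertical axis), of each member past the minimum level, over all cells and in each class; dashed lines mark 2-fold. Points past a line are *Pcdh20* and *Cdh22* in Lypd1-high cells and *Pcdh20* and *Cdh9* in Calb2-intermediate cells.

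*Cdh1* and *Cdh11* were found almost only in cells that also held myelin RNA. Cells with at least 500 CPM of 8 myelin genes (353 iCON and 250 iCKO cells) were compared with the others (109 and 157 cells). This split was added after the values were seen. *Cdh1* (E-cadherin), which is known from the junctions that Schwann cells form within their own myelin sheath, had 24.3 CPM in high-myelin and 0.448 in low-myelin cells of iCON, with 395 and 2 UMIs. In iCKO it had 24.2 and 0.405 CPM, with 202 and 2 UMIs. All but 2 of its UMIs in each library lay in high-myelin cells. *Cdh11*, known from Schwann cells and mesenchyme, had 9.09 and 0.487 CPM in iCON (143 and 2 UMIs) and 7.36 and 0.776 in iCKO. It was below the minimum level for this split in both libraries, so no ratio was called. *Cdh19*, a marker of the Schwann cell lineage, was at 0.979 and 0.170 CPM in iCON and at 1.12 CPM and 0 in iCKO. *Pcdh10* had 9.48 CPM in high-myelin and 1.39 in low-myelin cells of iCON, and 8.63 and 0.784 CPM in iCKO, where it was below the minimum level. *Pcdh9* had 22.6 and 11.3 CPM in iCON and 25.7 and 10.7 in iCKO. The log2 ratio of *Pcdh9* in Lypd1-high over Lypd1-low cells was 1.54 in iCON and 1.55 in iCKO among low-myelin cells, and 0.99 and 0.82 among high-myelin cells. The counts were 2 of 22 members at least 2-fold higher in high-myelin cells of iCON (*Cdh1* and *Pcdh10*; 2.63% of all genes) and 1 lower (*Pcdh20* at -1.23; 0.388%). In iCKO 1 of 20 was higher (*Cdh1*; 2.8%) and 0 lower (0.146%). Type II-like cells were 13 of the 109 low-myelin cells of iCON and 14 of the 353 high-myelin cells. Their part in the *Pcdh20* ratio was not tested. The level of *Cdh1* within high-myelin cells was alike in the libraries, at 24.3 and 24.2 CPM. Its mean over all cells was 18.7 CPM in iCON and 15.0 in iCKO. Low-myelin cells were more frequent in iCKO, and their part in this difference was not tested.

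**Figure D4:**
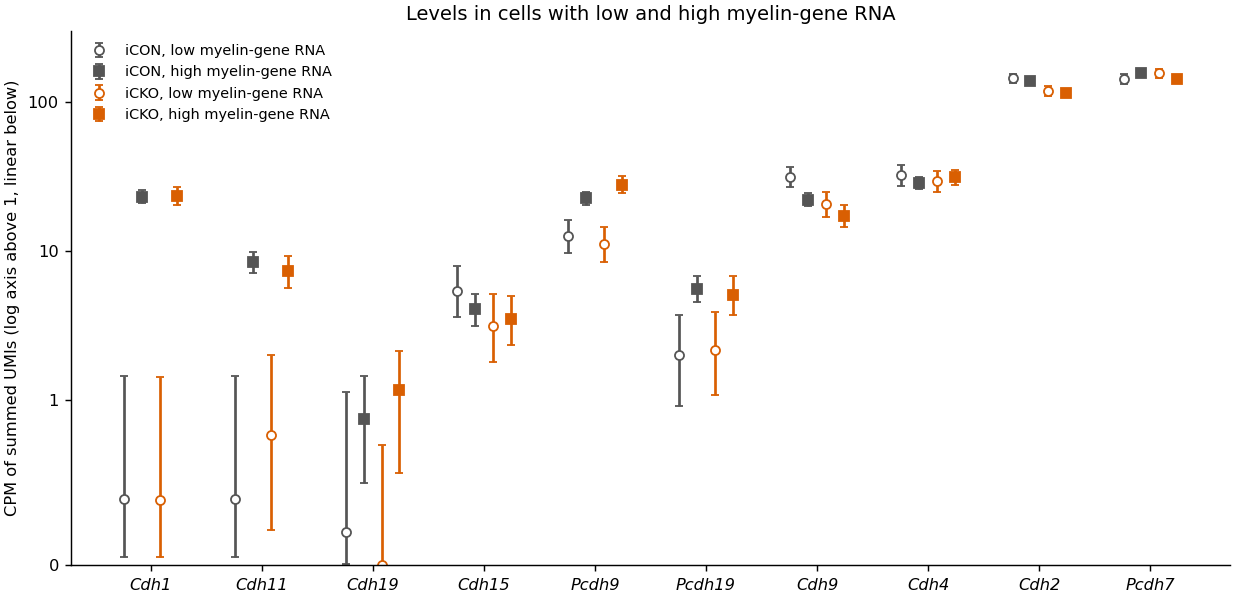
CPM of summed UMIs (vertical axis, logarithmic above 1 and linear below) of 10 members in cells with low (open circles) and high (filled squares) myelin-gene RNA, with 95% Poisson intervals for counting error only; grey is iCON and orange is iCKO. *Cdh1* and *Cdh11* are under 1 CPM in low-myelin cells of both libraries, and *Cdh2*, *Pcdh7* and *Cdh4* differ little by myelin.

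The clustered protocadherins were each low but many. Summed over members, the 21 beta genes reached 125 CPM in iCON and 114 in iCKO, the 21 gamma genes 32.5 and 25.6 CPM, and the 13 alpha genes 24.2 and 17.3 CPM. Of the members, 56 lie on chromosome 18 in GENCODE M21, among them all clustered genes that were matched. All 12 matched alpha genes end within 10 bases of each other there, and all 21 gamma genes likewise, because each array shares its last exons. Reads from the 3′ end cannot place an alpha or gamma isoform with certainty, and single values of those genes are uncertain. Of the 21 beta genes, whose transcripts are single exons of their own, 1 ends within 10 bases of the last end of the array.

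*Pcdhac2*, the last variable exon of the alpha array, was the highest alpha gene and lower in each class of iCKO. Its means were 12.2, 8.76, 9.93 and 9.69 CPM in Lypd1-high, Lypd1-low, Calb2-high and Calb2-intermediate cells of iCON, and 4.46, 5.29, 5.72 and 4.26 CPM in iCKO. Over all cells the log2 ratio was -0.58 (223 and 71 UMIs; interval -1.38 to -0.58), the lowest of the members past the minimum. Since the 3′ end is shared, this may count reads of other alpha isoforms.

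At 20000 UMIs a cell held a mean of 2.45 UMIs of beta genes in iCON and 2.32 in iCKO, which limits how many of these genes can be seen in it. It held UMIs of a median of 2 beta genes in each class of both libraries. The mean was 1.97 genes in iCON (SD over cells 1.37, 454 cells) and 1.88 in iCKO (SD 1.28, 405 cells), and 11.2% and 12.1% of cells held none. Their UMIs were spread unevenly: the variance over the mean across cells, which is 1 for random sampling of a constant level, had a median of 1.27 over 16 beta genes in iCON and 1.32 over 16 in iCKO. All genes of like level (0.05 to 0.5 UMIs per cell) had medians of 1.04 and 1.03. Above the 90th percentile of all such genes lay 10 of the 16 beta genes in iCON and 11 of 16 in iCKO. Of the other members 6 of 16 and 5 of 14 lay above it, among them *Pcdh9* at 1.96 and 1.84. Of the beta genes, *Pcdhb9* (1.99 in iCON, 1.62 in iCKO) and *Pcdhb4* (1.90 and 1.70) had the most uneven UMIs. *Pcdhb9* had up to 7 UMIs in a thinned iCON cell at a mean of 0.187. In the 9 comparisons between classes or libraries no beta gene past the minimum reached 2-fold, which with 0.0821% to 1.34% of all genes called per direction is near the background. Over all cells the log2 ratios of iCKO over iCON ran from -0.45 (*Pcdhb9*, 211 and 69 UMIs) to 0.21 (*Pcdhb4*, 149 and 116 UMIs). Of these, 8 of 10 were below 0, with a median of -0.14 beside -0.03 over all genes. The share of all genes below 0 is not given here, so this count is no result about the beta genes. *Pcdhb16*, the highest beta gene, had 13.1 and 12.7 CPM.

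**Figure D5:**
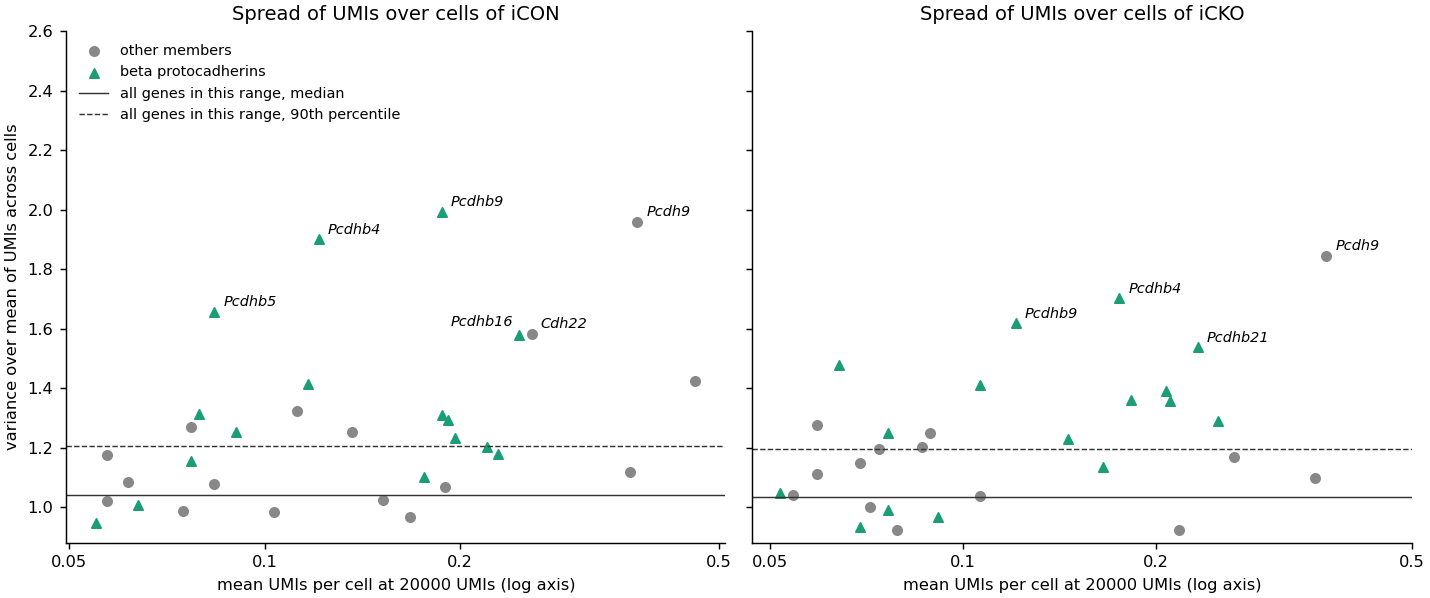
Variance over mean of UMIs across cells thinned to 20000 UMIs (vertical axis) against mean UMIs per cell (horizontal axis, logarithmic), 1 point per member between 0.05 and 0.5 UMIs per cell. Triangles are beta protocadherins, the solid line is the median of all genes in this range and the dashed line their 90th percentile; 10 of 16 beta genes in iCON and 11 of 16 in iCKO lie above it.

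Genes of proteins that cadherins work with were read in the same comparisons. Of 61 listed partner genes (catenins, WAVE complex subunits, shedding proteases, kinases, junction linkers and atypical cadherins), 51 were in the table and 44 or 45 past the minimum, and 0 were at least 2-fold different in each of the 9 comparisons between classes or libraries. Of all genes 0.0821% to 1.34% were called per direction, so 0 of so few is near the background and no result about the partners. For iCKO over iCON in all cells their log2 ratios had a median of -0.02. The highest were *Nckap1*, a WAVE complex subunit, at 0.49 (183 and 259 CPM in iCON and iCKO), and *Dchs1*, a large cadherin that binds Fat4, at 0.48 (13.4 and 20.8 CPM). The lowest were *Cyfip1*, another WAVE complex subunit, at -0.47 (86.2 and 61.0 CPM), and *Pvrl1* (nectin-1) at -0.38 (13.9 and 9.54 CPM).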

How the data were processed

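RNA of single tdTomato-sorted cells was measured with 10x Genomics 3′ chemistry, version 3, in 1 library per genotype. The submitters' processing notes name Cell Ranger, Seurat and the mouse build mm10; filters on cells and genes are not given in the sources used here. The values deposited by the authors are the natural log of 1 plus CPM. Linear CPM summed to 1000000 in all 869 cells and gave whole UMIs for 100% of values (tolerance 1e-06). The group of each cell was taken from a deposited text label. No barcode was shared by the libraries. Depth is 16168 to 93322 UMIs per cell in iCON and 18582 to 79487 in iCKO.

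With 1 library per group no test was made. Ratios are log2 of mean CPM with 5 CPM added, for genes whose mean over the 2 groups was at least 5 CPM. Intervals (95%; Poisson for summed UMIs, Clopper-Pearson for shares, conditional binomial for ratios of summed UMIs) cover counting error only. Shares were read after thinning each cell to 20000 UMIs, which left out 8 iCON and 2 iCKO cells. No doublet caller was run. Python 3.11.15, numpy 2.4.6, pandas 2.3.3 and scipy 1.17.1 were used, and the scripts were tested on simulated data. Alternatives were the added CPM, the minimum, the fold, class limits, summed UMIs, thinning, and subsets by sex-linked RNA, myelin RNA, type II-like cells and depth.

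The members, gene lists and classes were chosen with earlier results of these data known. Named were the 12 members with the highest mean, up to 4 highest and 4 lowest ratios per comparison, 7 members by name and the 2 highest and 2 lowest partner genes. Other members named (*Cdh7*, *Cdh8*, *Cdh10*, *Cdh11*, *Cdh15*, *Pcdh10*, *Pcdh17*, *Pcdha4*, *Pcdha7*) were chosen after their values were seen, unless a ratio ranks them. Sequences are from RefSeq (GRCm38.p6) and positions from GENCODE M21, which matched 80 of 81 members.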

Additional observations from a re-analysis of the deposited data

Results flagged for a closer look

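The log2 ratio of *Pcdh20*, iCKO over iCON, had opposite signs between cells with *Xist* and cells with Y-linked RNA. Over all cells it was -0.69 with *Xist* RNA only and 1.96 with Y-linked RNA only. In Lypd1-low cells it was -1.13 and 1.94. Without type II-like cells, which were all *Xist*-positive in iCON and all Y-positive in iCKO, the values were 0.55 and 1.58 over all cells and 0.12 and 1.55 in Lypd1-low cells. *Cdh4* in Lypd1-low cells was at -0.75 with *Xist* and 0.98 with Y-linked RNA, and at -0.35 and 0.64 without type II-like cells. *Pcdhb7* in Calb2-high over Calb2-intermediate cells of iCON was at -0.63 with *Xist* and 0.61 with Y-linked RNA. None of these differences between the sexes was tested, since each library is 1 sample.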

How the results depend on the processing

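Of 2019 values of 175 single-gene ratios under the alternatives, 1891 stayed near the main value, 128 moved, and no ratio reported as at least 2-fold changed sign. *Pcdh20*, iCKO over iCON, was under 2-fold as reported and took both signs, from -1.13 to 1.94 in Lypd1-low and from -0.69 to 1.96 over all cells. *Pcdh20* in Lypd1-high cells, iCKO over iCON, ranged from 0.53 to 2.33 and *Cdh22* from 0.58 to 1.86. Of 298 counts of members at least 2-fold different, 65 moved by over 1.5 times, and those are given here by setting, with higher and lower as in the report. With 1 library per group no replicate could be left out. No paired analysis was possible because each group is 1 library. Low counts limit all members but *Pcdh7* and *Cdh2*.

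For iCKO over iCON, the count higher over all cells became 1 with 1 CPM added, at 1.5-fold, after thinning, in low-myelin cells and in Y-positive cells. In Lypd1-high cells the count higher became 1 in low-myelin cells, in Y-positive cells and with *Calb2* under 1000 CPM, and 0 with 20 CPM added or a minimum of 20 CPM. The count lower there became 1 with 1 CPM added, at 1.5-fold, in low-myelin or Y-positive cells, and in either *Calb2* stratum. In Lypd1-low cells 1 was higher at 1.5-fold, in low-myelin and in Y-positive cells, and 1 lower in *Xist*-positive cells. In Calb2-high cells 1 was lower at 1.5-fold and in Y-positive cells. In Calb2-intermediate cells the count higher became 4 at 1.5-fold, 2 with 1 CPM added, from summed UMIs and without Lypd1-high cells, and 0 with 20 CPM added, a minimum of 20 CPM, doubled limits or low myelin. The count lower there became 2 with 1 CPM added and at 1.5-fold, and 0 with 20 CPM added, doubled limits or no Lypd1-high cells.

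For Lypd1-high over Lypd1-low, smaller shifts also occurred in the count of 3 lower. It was 2 in iCON with 20 CPM added, a minimum of 20 CPM, low myelin or Y-positive cells, and in iCKO 2 at a minimum of 20 CPM and 4 at 1.5-fold or low myelin. In iCON the count higher became 2 with 1 CPM added and at 1.5-fold, and 0 with 20 CPM added and in high-myelin cells. In iCKO it became 2 at 1.5-fold, in low-myelin and in Y-positive cells. It became 0 with 20 CPM added, doubled limits, thinning, high myelin, *Xist*-positive cells, without the deepest 5% of cells and without the top cell of the gene, and the count lower became 1 with 20 CPM added. For Calb2-high over Calb2-intermediate in iCON, 2 were higher and 1 lower at 1.5-fold, and 0 higher at a minimum of 20 CPM. In iCKO, 2 were higher with 1 CPM added, at 1.5-fold, in Y-positive cells and without the top cell of the gene. The count higher became 0 with 20 CPM added, a minimum of 20 CPM, doubled limits or thinning. The count lower became 1 at 1.5-fold, with doubled limits or in Y-positive cells, and 2 in low-myelin cells. The *Calb2* strata and the removal of the top cell were chosen after seeing the data. The causes of these shifts were not tested.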
